A study of Mus musculus with 2 samples.

Results

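The genes described here encode surface or secreted molecules by which tumour cells are read by T cells, natural killer (NK) cells and phagocytes. The 10 members were taken by symbol from the 54532 genes of the deposited table: Cd274, Cd276, Vsir, Pvr, Nectin2, Lgals9, Cd47, Nt5e, Raet1e and Ulbp1. Each symbol stood at a single gene, and all 10 were among the 12273 genes with at least 1 CPM (counts scaled to a library total of 1000000) in at least 1 library. Messenger RNA came from CMT167R cells, an anti-PD1 resistant derivative of the mouse lung carcinoma line CMT167. The design held 2 libraries, 1 from untreated cells (CON) and 1 from cells given 50 nM of a compound named PKCi for 24 h. The identity of PKCi is not given by the labels, nor how the resistant cells were derived, whether they are a clone, and what vehicle, if any, the untreated cells received. With 1 library per group there was no test between conditions, no difference below has a replicate check, and each 95% interval covers counting error only.

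As background, T cells carry inhibitory receptors such as PD1, which binds PD-L1, the product of Cd274 and the ligand that anti-PD1 antibodies keep from its receptor. Nectin-family ligands engage activating CD226 and inhibitory TIGIT and CD96 on T and NK cells, and stress-induced ligands such as those of Raet1e and Ulbp1 engage the activating receptor NKG2D. Further signals on tumour cells act on other partners: CD47 restrains phagocytes through SIRPα, galectin 9 binds TIM-3 among other glycoproteins, and CD73, the product of Nt5e, makes adenosine outside the cell.

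The libraries held 16090186 (CON) and 16071153 (PKCi) gene counts, so that 1 CPM stood for 16.1 counts in each, and a count of 0 allowed up to 0.186 and 0.187 CPM. The labelled cell type was checked against epithelial genes: the keratin genes Krt8 and Krt18 were at 933 and 643 CPM untreated and at 1182 and 765 CPM with PKCi. Of the other listed markers, Krt19 was at 59.7 and 71.1 CPM and Cldn7 at 6.53 and 7.40 CPM. Epcam was at 3.48 and 6.28 CPM, Cdh1 at 2.92 and 3.36 CPM, and Cldn4 had 2 and 3 counts. Krt7 was at 43.5 CPM in CON and 29.8 CPM in PKCi, and Vim, the gene of the mesenchymal filament protein vimentin, at 2661 and 2783 CPM. Of the 12 lung epithelial and carcinoma markers listed, Nkx2-1, Sftpb, Sftpc and Sftpa1, which mark alveolar lineage, had no count in either library. Of 12 retina markers, examined because 1 of the labels' protocols speaks of retina, 8 had no count in either library, and Gnat2 held 53 of 57 retina marker counts in CON and 24 of 30 in PKCi. Levels are given as counts scaled to the library total, and a difference as the plain ratio of CPM or as log2((PKCi + 1)/(CON + 1)) in CPM. The added 1 CPM shrinks the ratio of low genes.

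The ligand genes differed in direction between the libraries. Lgals9, the galectin 9 gene, was the only member at least 2-fold lower with PKCi on the log2(CPM + 1) scale, where 5.13% of all genes tested were, and 0 of 10 members were at least 2-fold higher, where 6.53% of genes were. At 1.5-fold, 4 members were higher (Vsir, Pvr, Cd47 and Raet1e), against 16.8% of all genes, and Lgals9 alone was lower, against 16.7%. Vsir passed 1 CPM only in PKCi, so the filter fixed its direction in these counts. Of the members, 7 were above a log2 ratio of 0 and 3 below, beside 6040 and 6233 of all 12273 genes tested. The 7 include Vsir and Cd274, and the 3 include Nt5e. For Cd274 and Nt5e the interval of the ratio includes 1. The median log2 ratio of all 10 members, Vsir included, was 0.41, beside −0.01 for all genes tested, whose quartiles were −0.41 and 0.39. Pvr, the gene of the nectin-like molecule CD155, and Vsir, the gene of VISTA, lay just under the 2-fold size at 0.98 and 0.96.

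**Figure D1:**
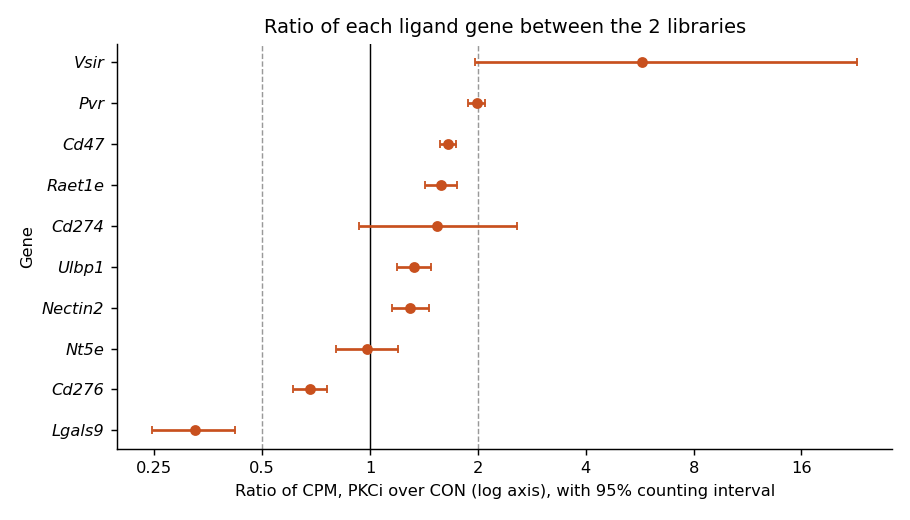
Ratio of CPM in the PKCi library over the CON library for each ligand gene (log axis). Points are 1 library against 1 library, bars are exact conditional binomial 95% intervals that cover counting error only, and dashed lines mark 2-fold; the bar of Lgals9 lies wholly below 0.5, and the bars of Cd274 and Nt5e include 1.

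Summed over the 10 genes, counts were 7115 in CON and 10690 in PKCi, a 1.504-fold ratio of CPM (95% interval 1.46 to 1.55) between the libraries. Cd47 and Pvr held most of these counts. Without them the sums were 2963 and 3266 counts, a ratio of 1.10 (95% interval 1.05 to 1.16).

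**Figure D2:**
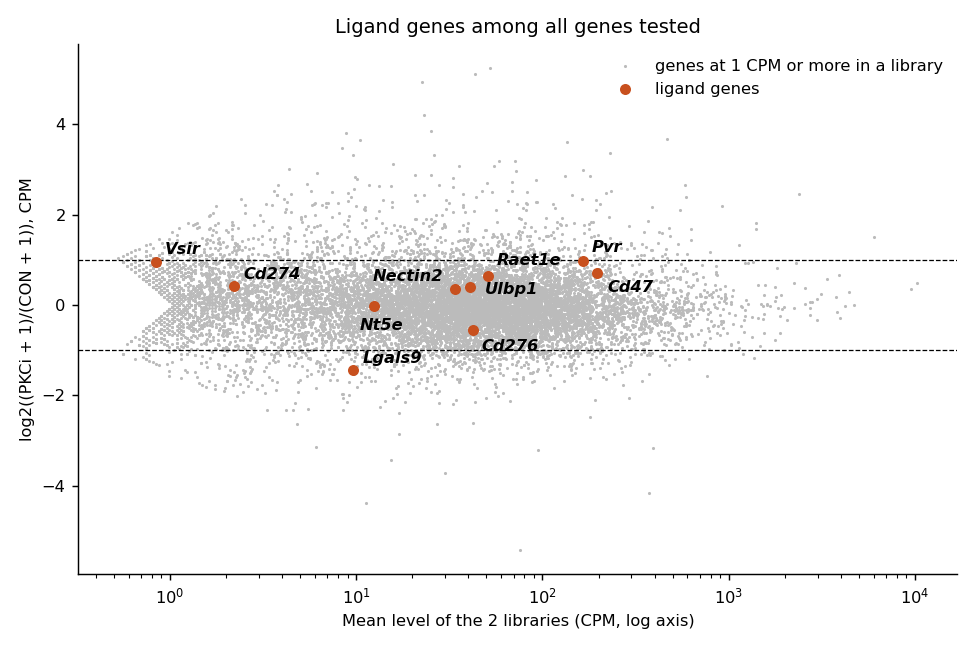
Log2 ratio of PKCi over CON against the mean level of the 2 libraries (CPM, log axis) for 12273 genes at 1 CPM or more in a library (grey) and the ligand genes (orange, named). Dashed lines mark 2-fold; Lgals9 lies below the lower line, and Pvr and Vsir lie just under the upper line.

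Among the B7 family ligands, the low-abundance genes Cd274 and Vsir had higher values with PKCi and the abundant Cd276 a lower value. Cd274 had 28 counts in CON (1.74 CPM) and 43 in PKCi (2.68 CPM). The ratio was 1.54 with a 95% interval of 0.934 to 2.57, so a difference was not detectable at this depth. The gene (ENSMUSG00000016496) lies on chromosome 19 from 29367455 to 29388095 on the plus strand of GRCm38. An antisense gene, AC119228.1, covers 511 of its 3622 exon bases on the opposite strand and was not analysed here. Vsir encodes VISTA, an inhibitory molecule that can act as ligand and as receptor. It had 4 counts in CON (0.249 CPM) and 23 in PKCi (1.43 CPM), a ratio of 5.76 with a wide 95% interval of 1.97 to 22.9. Only the PKCi library took Vsir past the 1 CPM filter, so the filter fixed its direction. Vsir (chromosome 10, 60346851 to 60372684, plus strand) lies within the span of Cdh23, a cadherin gene on the opposite strand that shares no exon base with it and had 0 and 4 counts. Cd276 encodes B7-H3, a B7 relative common on carcinomas whose receptor is not settled. It had 810 counts in CON (50.3 CPM) and 550 in PKCi (34.2 CPM), 1.47-fold lower (95% interval 1.32 to 1.64). Cd276 (chromosome 9, 58524298 to 58555437, minus strand) stood far above Cd274 in counts in each library, and Cd274 made up 3.34% of the summed counts of this pair in CON (exact binomial 95% interval 2.23 to 4.79%) and 7.25% in PKCi (95% interval 5.30 to 9.64%).

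Other genes of the B7 and butyrophilin families were mostly near 0. Of 9 listed, 2 passed 1 CPM and neither differed by 2-fold. Cd80, a costimulatory ligand of CD28 that also binds CTLA-4 and PD-L1, had 89 counts in CON (5.53 CPM) and 104 in PKCi (6.47 CPM). Btn2a2, a butyrophilin gene, was at 1.93 and 1.12 CPM. Pdcd1lg2, which encodes PD-L2, the other ligand of PD1, had no count in either library, and Cd86 had 1 in each.

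The 250 bases before the RefSeq start sites of Cd274 and Vsir (GRCm38.p6) are shown because these are the scarcest members. Capitals mark the GC box letters GGGCGG on either strand. The windows are chr19:29367188-29367437 and chr10:60346601-60346850, each on the plus strand. Most of the Cd274 window lies within the neighbouring gene Plgrkt, which spans 29348599 to 29367390 on the minus strand and starts inside the window.
Cd274: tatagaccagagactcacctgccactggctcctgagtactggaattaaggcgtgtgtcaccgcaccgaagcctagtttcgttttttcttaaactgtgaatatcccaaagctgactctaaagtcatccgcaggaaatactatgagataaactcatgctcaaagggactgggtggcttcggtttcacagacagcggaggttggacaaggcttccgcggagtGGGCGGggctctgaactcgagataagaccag
Vsir: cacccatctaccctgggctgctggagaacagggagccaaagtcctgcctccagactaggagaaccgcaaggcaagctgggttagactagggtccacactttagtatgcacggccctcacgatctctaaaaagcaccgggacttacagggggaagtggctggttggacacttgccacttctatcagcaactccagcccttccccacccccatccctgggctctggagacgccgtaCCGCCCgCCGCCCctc
Cd274 held 1 GC box match and Vsir 2, and neither held a match to any other motif searched. These were NF-kB (GGGA and TTCC with 2 bases between), AP-1 (TGANTCA), the interferon-stimulated response element (ISRE, GAAA and GAAA with 2 bases between), the STAT element GAS (TTCNNNGAA), TEAD (GGAATG), E2F (GCGGGAA) and the E-box CACGTG, each on both strands. Among 32851 windows of all genes, 32.7% held GGGCGG, 1.21% the NF-kB letters, 6.75% AP-1, 2.98% ISRE, 7.02% GAS, 12.6% TEAD, 3.82% E2F and 6.02% the E-box.

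Pvr and Nectin2 both had higher values with PKCi, Pvr by more. Pvr encodes CD155, the high-affinity ligand of TIGIT and CD96 and a ligand of CD226. It had 1771 counts in CON (110 CPM) and 3506 in PKCi (218 CPM), 1.98-fold higher (95% interval 1.87 to 2.10), and 6.89% of all genes tested had a higher log2 ratio. Nectin2 encodes CD112, a ligand of CD226 and PVRIG. It had 478 counts in CON (29.7 CPM) and 619 in PKCi (38.5 CPM), 1.30-fold higher (95% interval 1.15 to 1.46). A log2 ratio of 0.36 left Nectin2 within the middle quartiles of all genes. Pvr was the larger part of the pair in each library, 78.7% of their summed counts in CON (exact binomial 95% interval 77.0 to 80.4%) and 85.0% in PKCi (95% interval 83.9 to 86.1%), a share that does not depend on how the libraries are scaled. The genes lie close together on the minus strand of chromosome 7, Nectin2 from 19716644 to 19750483 and Pvr from 19903578 to 19921160. No promoter window for Pvr was in the RefSeq table used.

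The other nectins and nectin-like genes had lower values or almost no counts. Of 7 listed, 3 passed 1 CPM, all with log2 ratios below 0 (median −0.66), and 1 was at least 2-fold lower. That gene was Cadm1, a ligand of the T and NK cell receptor CRTAM, at 252 CPM in CON and 110 CPM in PKCi (2.29-fold lower). Cadm2 was at 3.73 and 1.99 CPM, and Cadm4 at 1.12 and 0.684 CPM. Cadm4 passed 1 CPM only in CON, so the filter fixed its direction. Nectin1 and Nectin3 had no count in either library, and Nectin4 had 1 in each.

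The NKG2D ligands Raet1e and Ulbp1 were expressed at similar counts in untreated cells, and both had higher values with PKCi. Raet1e, a gene of the RAE-1 family, had 637 counts in CON (39.6 CPM) and 1003 in PKCi (62.4 CPM), 1.58-fold higher (95% interval 1.43 to 1.74). Ulbp1, which encodes MULT1, had 568 counts in CON (35.3 CPM) and 753 in PKCi (46.9 CPM), 1.33-fold higher (95% interval 1.19 to 1.48). Raet1e made up 52.9% of the counts of this pair in CON (exact binomial 95% interval 50.0 to 55.7%) and 57.1% in PKCi (95% interval 54.8 to 59.4%). The intervals overlap, which does not show that the shares were equal. The log2 ratios were 0.64 and 0.40, and 14.9% and 24.5% of all genes tested had higher ones. Over all NKG2D ligand genes present in the table, which also include Raet1d, H60b and H60c, summed counts were 1211 in CON and 1758 in PKCi. Raet1d had 6 and 2 of these, and H60b and H60c had none.

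The split of counts between Raet1e and Raet1d is uncertain. Raet1e (chromosome 10, 22158569 to 22374139, plus strand) ends at the same base as Raet1d, shares 363 of its 2159 exon bases with it on the same strand, and shares 133 with H60b. In the longest Raet1e transcript of GENCODE M21, 44.4% of all words of 50 bases also occurred in a transcript of another gene, and 38.9% of all words occurred in Raet1d. For Ulbp1 (chromosome 10, 7440362 to 7473638, minus strand) the share was 1.81%. The upstream sequence of Raet1e is shown because its start lies in this cluster of related genes; the window is chr10:22158319-22158568 on the plus strand of GRCm38.p6, with GC box letters in capitals.
Raet1e: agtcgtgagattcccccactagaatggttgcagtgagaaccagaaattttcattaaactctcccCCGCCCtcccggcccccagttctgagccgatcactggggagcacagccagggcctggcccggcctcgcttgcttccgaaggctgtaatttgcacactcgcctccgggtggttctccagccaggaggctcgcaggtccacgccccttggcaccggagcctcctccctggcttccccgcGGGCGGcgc
A further RefSeq start of Raet1e had 1 GC box and 1 TEAD match in its window. The Ulbp1 window held 1 E2F match and no other, but 161 of its 250 bases lie in an exon of Ulbp1 in GENCODE M21, so that sequence is not shown.

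Other ligands of NK receptors included the non-classical class I gene H2-T23, whose product Qa-1 presents to the inhibitory receptor NKG2A and which was at 10.6 CPM in CON and 49.8 CPM in PKCi (4.68-fold higher, 95% interval 3.97 to 5.56). Of 11 genes on this list 4 passed 1 CPM, and H2-T23 alone passed 2-fold. Bag6, whose product is a ligand of human NKp30, was at 318 and 349 CPM, and Cdh1, the E-cadherin gene and a ligand of KLRG1, at 2.92 and 3.36 CPM. The Clec2d and Clec2g genes, whose family holds ligands of NK receptors, had 7 and 1 counts in CON and 5 and 3 in PKCi.

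Lgals9 had the lowest ratio of the members. It had 235 counts in CON (14.6 CPM) and 76 in PKCi (4.73 CPM), 3.09-fold lower (95% interval 2.38 to 4.05), and 1.42% of all genes tested had a lower log2 ratio than its −1.45. No word of 50 bases of the longest Lgals9 transcript (chromosome 11, 78962974 to 78984946, minus strand) occurred in another gene. Its upstream window is shown because Lgals9 was the single member past 2-fold and, of the 9 members with a window, the single 1 whose window held the ISRE letters, at 55 to 46 bases before the start, on the strand opposite to the gene. The window is chr11:78984925-78985174 on the minus strand of GRCm38.p6, and the ISRE match is in capitals.
Lgals9: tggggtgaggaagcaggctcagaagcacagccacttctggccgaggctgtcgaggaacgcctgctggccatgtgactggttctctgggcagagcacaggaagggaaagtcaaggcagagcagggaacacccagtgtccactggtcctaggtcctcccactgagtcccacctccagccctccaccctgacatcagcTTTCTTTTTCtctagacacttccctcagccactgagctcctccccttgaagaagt
No other motif searched was found in this window, and 22 of its 250 bases lie in a GENCODE M21 exon of Lgals9. Among the 32851 windows of all genes, 2.98% held the ISRE letters. A link between this match and the ratio of Lgals9 was not tested.

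The other galectin genes did not share this lower value. Of 8 listed, 4 passed 1 CPM, 2 with log2 ratios above 0 and 2 below, and 0 passed 2-fold. Lgals8, whose product binds glycans on damaged vesicles, was at 47.9 CPM in CON and 95.1 CPM in PKCi (1.99-fold higher, 95% interval 1.82 to 2.17). Lgals3 was at 316 and 435 CPM, and Lgals3bp, which encodes a secreted galectin-binding protein, at 27.2 and 18.1 CPM. Havcr2, which encodes TIM-3, a receptor that galectin 9 binds, had 8 counts in CON (0.497 CPM) and 113 in PKCi (7.03 CPM), 14.1-fold higher (95% interval 6.94 to 33.6). Havcr2 passed 1 CPM only in PKCi, so the filter fixed its direction.

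Cd47 was the most abundant member and Nt5e hardly differed. Cd47, whose product signals to phagocytes through SIRPα, had 2381 counts in CON (148 CPM) and 3918 in PKCi (244 CPM), 1.65-fold higher (95% interval 1.57 to 1.73), and 12.4% of all genes tested had a higher log2 ratio. It lies on chromosome 16 from 49800533 to 49915010 on the plus strand. Nt5e, which encodes the ectoenzyme CD73 (chromosome 9, 88327197 to 88372092, plus strand), had 203 counts in CON (12.6 CPM) and 199 in PKCi (12.4 CPM). Its ratio of 0.981 had a 95% interval of 0.803 to 1.20, so at this depth counting error allowed up to 1.20-fold higher or 1.25-fold lower.

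Among other signals to phagocytes, 6 of 8 listed genes passed 1 CPM, with 1 at least 2-fold lower and 0 higher, 2 above a log2 ratio of 0 and 4 below, and a median of −0.22. The gene past 2-fold was Thbs1, thrombospondin 1, a secreted ligand of CD47, at 709 CPM in CON and 77.7 CPM in PKCi. B2m, the shared class I subunit and a ligand of an inhibitory receptor of macrophages, was at 185 and 328 CPM, and Lrp1, a receptor for calreticulin, at 361 and 555 CPM. Calr, the calreticulin gene itself, was at 1880 and 1225 CPM (1.53-fold lower), and Cd24a, whose product is a further inhibitory signal to phagocytes, at 298 and 246 CPM. Qpctl, the enzyme gene whose product modifies CD47 for SIRPα binding, was at 31.5 and 27.9 CPM, and Sirpa itself had 2 counts in CON and 0 in PKCi (Calr, Cd24a, Qpctl and Sirpa were named after their values were seen).

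Of 19 listed genes of extracellular purine handling, 7 passed 1 CPM, with 1 at least 2-fold higher and 1 lower. P2rx4 and P2rx7, ATP-gated channels, were at 19.8 and 0.746 CPM in CON and at 46.2 and 2.36 CPM in PKCi. P2rx7 passed 1 CPM only in PKCi, so the filter fixed its direction. Adk, which returns adenosine to AMP inside the cell, was 2.51-fold lower (84.3 and 33.5 CPM). Entpd1, which encodes CD39, the enzyme upstream of CD73, had no count in either library, and the adenosine receptor gene Adora2a had 2 counts in CON and 0 in PKCi (both named after their values were seen).

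Levels of different genes were compared after dividing by gene length (TPM, scaled to 1000000 per library, from the lengths in the table, which equalled the union of GENCODE M21 exons for all 10 members). In CON the order was Cd47 (76.6 TPM), Raet1e (59.6), Pvr (58.4), Cd276 (44.7), Nectin2 (27.6), Lgals9 (22.2), Ulbp1 (17.0), Nt5e (4.76), Cd274 (1.56) and Vsir (0.161 TPM). The exact Poisson intervals of the neighbouring places Raet1e and Pvr overlapped, as did those of Nectin2 and Lgals9, and those of all other neighbours did not. In PKCi the order was Cd47 (126.9 TPM), Pvr (116), Raet1e (94.4), Nectin2 (36.0), Cd276 (30.6), Ulbp1 (22.8), Lgals9 (7.23), Nt5e (4.70), Cd274 (2.41) and Vsir (0.932 TPM), and no neighbours' intervals overlapped. Pvr, Nectin2 and Ulbp1 each stood a place higher in PKCi than in CON, and Raet1e, Cd276 and Lgals9 a place lower. Cd47, Raet1e and Pvr were the 3 highest in each library, and Nt5e, Cd274 and Vsir the 3 lowest. For Pvr and Nt5e the joined exons (6122 and 8602 bases) are much longer than the longest transcript (2905 and 3995 bases). Per kilobase of the longest transcript, Pvr came first in each library (37.9 CPM per kb in CON and 75.1 in PKCi), before Cd47 (28.2 and 46.4 CPM per kb), and Nt5e stood above Lgals9 in PKCi (3.10 and 2.98 CPM per kb). Which transcripts the cells used cannot be read from counts per gene.

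**Figure D3:**
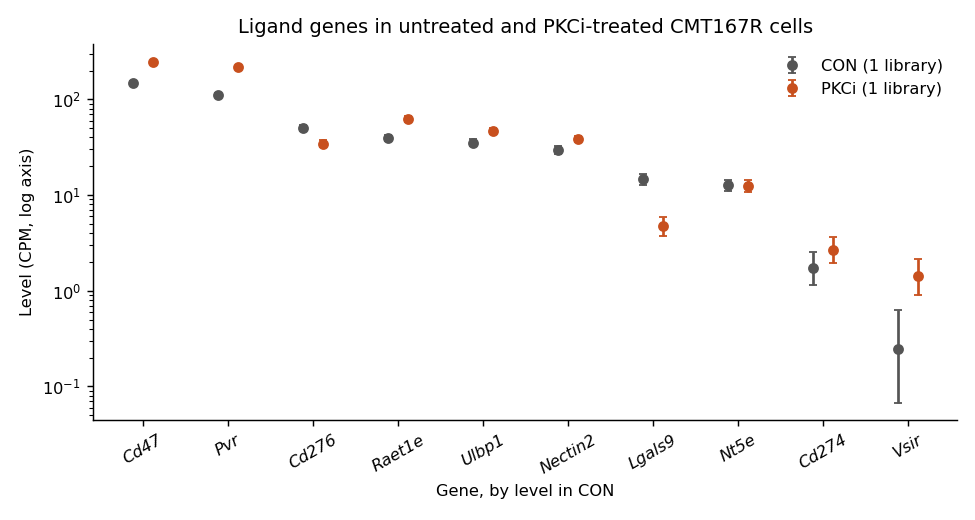
Level of each ligand gene in CPM (log axis) in CON (grey) and PKCi (orange), 1 library each, ordered by the level in CON. Bars are exact Poisson 95% intervals, which cover counting error only; Cd47 is highest in each library (148 and 244 CPM) and Vsir lowest (0.249 and 1.43 CPM).

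Genes that act on PD-L1 were measured at higher levels than Cd274 itself. All 18 listed genes passed 1 CPM. With PKCi 5 were at least 2-fold higher and 0 lower, where 6.53% and 5.13% of all genes tested were. The median log2 ratio was 0.39, beside −0.01 for all genes tested. The interferon gamma receptor subunit gene Ifngr2 was at 42.7 and 104 CPM, the transcription factor gene Irf1 at 19.7 and 44.1 CPM, and Stat3 at 82.7 and 176 CPM. The other two past 2-fold were the NF-kB subunit gene Rela and Zfp36, which encodes a protein that promotes decay of AU-rich messages. Cmtm6, whose product keeps PD-L1 at the surface, was at 47.3 and 72.3 CPM (Rela, Zfp36 and Cmtm6 were named after their values were seen).

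Few TNF superfamily ligands were measurable. Of 18 listed genes 4 passed 1 CPM and 0 passed 2-fold. Tnfsf15, Tnfrsf14 and Fas, the 3 with the largest absolute log2 ratios, had 8, 5 and 6 counts in CON and 32, 22 and 22 in PKCi. They passed 1 CPM only in PKCi, so the filter fixed their direction. The only list gene past 1 CPM in both libraries was Tnfsf9, the gene of the costimulatory ligand 4-1BBL, with 289 and 253 counts (ratio 0.876, 95% interval 0.737 to 1.04). Tnfrsf14 encodes HVEM, the ligand of the inhibitory receptor BTLA. Its ratio was 4.41 (95% interval 1.63 to 14.9). Of 8 genes of ectodomain shedding, a process that releases NKG2D ligands from tumour cells, 1 passed 2-fold. Mmp14, a membrane-bound metalloproteinase, was at 191 CPM in CON and 490 CPM in PKCi. Pdia6, a disulfide isomerase, was at 606 and 410 CPM, and Timp3, a protease inhibitor gene, at 1.24 and 2.36 CPM.

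**Figure D4:**
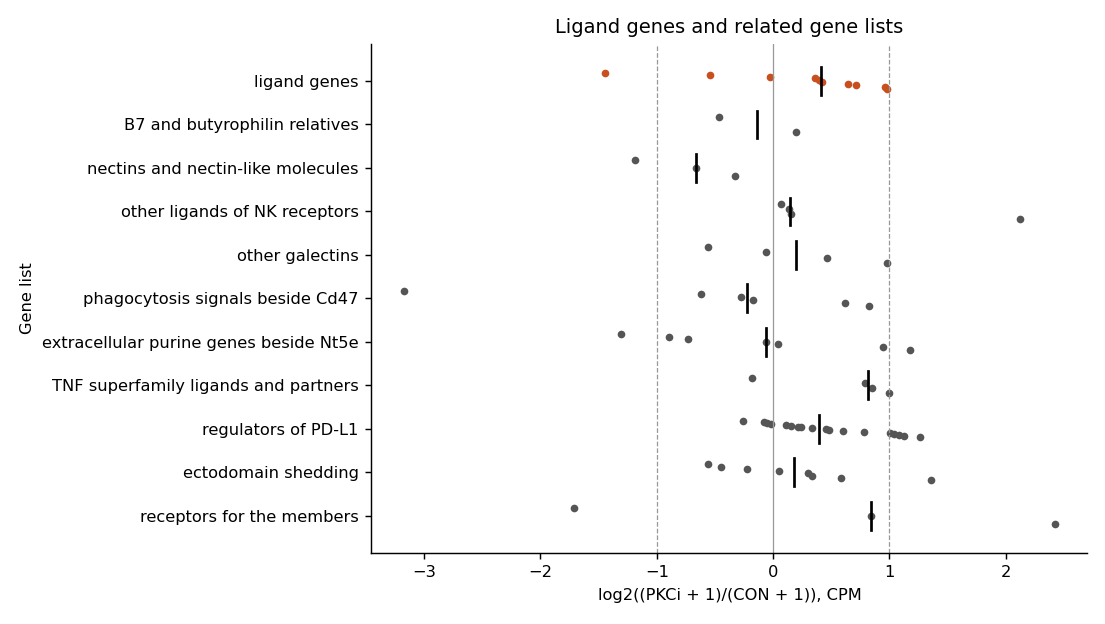
Log2 ratio of PKCi over CON in CPM for the ligand genes (orange) and for the genes of each related list that passed 1 CPM (grey), 1 point per gene, with a black bar at each median. Dashed lines mark 2-fold; the ligand genes have a median of 0.41 and the PD-L1 regulators of 0.39, and the receptor list holds Tigit (−1.71), Lag3 (0.85) and Havcr2 (2.42).

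The listed receptors of T, NK and myeloid cells are normally carried by immune cells, and most had no counts in this culture. The list is broader than the receptors for the members. It also holds Cd28, Ctla4 and Crtam, whose products bind ligands of the related lists, and Lag3 and Ncr1, for which no member is named here as ligand. Counts, sums and the median of this list therefore describe the whole list and not the members' receptors alone. Of 17 listed, 16 were in the table and 9 had no count in either library, among them Pdcd1, Cd226, Cd96, Klrk1 (NKG2D) and Ncr1. Tigit, the inhibitory receptor of which CD155 is a ligand, had 270 counts in CON (16.8 CPM) and 71 in PKCi (4.42 CPM), 3.80-fold lower (95% interval 2.91 to 5.01). It held 270 of 296 receptor counts in CON, and Havcr2 held 113 of 226 in PKCi, so that the receptor sum without Tigit was 26 and 155 counts. Lag3 had 4 and 20 counts. Havcr2 and Lag3 passed 1 CPM only in PKCi, the library in which they were higher. Tigit (chromosome 16, 43648867 to 43664146, minus strand) overlaps no other gene of GENCODE M21, and 4.37% of its words of 50 bases occurred in another gene. Of 25 leukocyte markers, 17 had no count in either library, including Ptprc, Cd3d, Cd3e, Cd3g, Cd4, Cd8a, Nkg7, Klrb1c, Itgam and Adgre1. Their summed level was 68.3 CPM in CON and 109 CPM in PKCi, of which Cd14, which some epithelial cells also express, made up 56.9 and 101 CPM. Without Cd14 the sum was lower in PKCi (184 counts in CON and 135 in PKCi). The other leukocyte markers past 1 CPM were Lyz2, with 133 and 50 counts (8.27 and 3.11 CPM), Cd68, with 38 and 57, and Trac, with 6 and 17. Trac passed 1 CPM only in PKCi, so the filter fixed its direction. In a bulk sample, fewer cells of a type and less RNA per cell cannot be told apart.

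The nearest measured genes on each side of the ligand genes lay from 0.065 kb to 1072 kb away, so several are not adjacent. The start of Cd274 lies 0.065 kb from the start of Plgrkt, a plasminogen receptor gene on the opposite strand that runs the other way. Plgrkt was at 21.3 CPM in CON and 14.6 CPM in PKCi (1.46-fold lower). On the other side Ric1 had 370 and 402 counts. Pvr stands between Ceacam16, which had 16 and 167 counts (10.4-fold higher, 95% interval 6.25 to 18.7), and Igsf23, which had 20 and 43. Ceacam16 passed 1 CPM only in PKCi, so the filter fixed its direction. Nectin2 stands 1.21 kb from Tomm40, a mitochondrial import gene at 183 and 81.5 CPM, and 5.65 kb from Bcam, at 27.8 and 38.3 CPM. Vsir has as its nearest measured neighbours the lysosomal genes Psap, at 617 and 2181 CPM, and Slc29a3, at 14.9 and 28.7 CPM. They lie 44.3 and 339 kb away. Around Lgals9, Lyrm9 (8.76 and 7.78 CPM) and Ksr1 (4.47 and 3.98 CPM) differed by under 1.5-fold.

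For the other members, the neighbours of Raet1e were Sgk1, a kinase gene at 274 and 649 CPM, and Tbpl1, at 30.3 and 38.6 CPM. They lie 159 and 330 kb away. The neighbours of Ulbp1 were Cnksr3, with 25 counts in CON and 1 in PKCi, and Pcmt1, at 92.0 and 79.5 CPM. They lie 228 and 156 kb away. Cnksr3 passed 1 CPM only in CON, so the filter fixed its direction. Cd47 lies between Ift57 (24.6 and 17.1 CPM) and Bbx (80.7 and 105 CPM), which is 277 kb away. Nt5e lies between Cep162 (21.4 and 37.6 CPM), which is 1072 kb away, and Snx14 (30.1 and 36.9 CPM). Cd276 lies between Insyn1 (7.83 and 8.34 CPM) and Nptn (147 and 168 CPM).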

How the data were processed

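RNA was sequenced from 2 samples of the mouse line CMT167R, grouped by the labels' treatment. Per the labels, stranded poly(A) libraries were made; another protocol in the labels names a different kit. The submitters' processing notes name HISAT2 2.0.5 and GRCm38 (mm10). How reads were counted, with what strand setting and annotation, is not stated in the labels. The authors deposited whole-number counts per gene, although the table's name speaks of FPKM; all of the integers from 1 to 20 occurred in CON. Of the genes, 54409 were in GENCODE M21, 98.3% of them at the same position.

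Counts were scaled to the library total (CPM, 1000000). Size calls used log2((PKCi + 1)/(CON + 1)) at 2-fold and 1.5-fold. Ratios have exact conditional binomial (Clopper-Pearson) 95% intervals and levels exact Poisson ones; reads are not independent molecules, so these cover counting error only. Promoter windows were RefSeq's (GRCm38.p6; 9 of 10 members matched, the 250 bases before the start searched). TMM factors came from edgeR 4.0.16, other values from Python 3.11.15 with scipy 1.17.1. Procedures were tested on simulated data.

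All members are named whatever their values, with the 3 measured genes of largest absolute log2 ratio on each related list, the receptors and markers by sums, and the nearest measured protein-coding neighbours (no Gm or Rik symbols). Members and lists were chosen with earlier results of these data known. Raet1a, Raet1b, Raet1c, H60a and Sirpg were listed but not matched by symbol. With 2 libraries a pattern is only a ratio, so no genes are named for a like pattern. Summed sets without Cd47 and Pvr and the pair shares were chosen after the data were seen. No sample column was left unassigned (0). Summed fibroblast markers were 101 and 38.3 CPM in CON and PKCi, a difference carried by Pdgfrb (206 and 223 counts without it). Of the 5 measured, 3 had higher values, but Col3a1 and Dcn passed 1 CPM only in PKCi, so the filter fixed their direction. Among those past 1 CPM in both libraries, Pdgfra was higher and Pdgfrb and Col1a1 were lower. Summed endothelial markers were 0.621 and 1.24 CPM. The part of fibroblast or endothelial markers in any result was not tested.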

Additional observations from a re-analysis of the deposited data

How the results depend on the processing

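No paired analysis was possible because each group has 1 library, and for the same reason no library could be left out. The 9 alternatives were other scalings (edgeR TMM factors, median-of-ratios size factors, TPM, library totals without mitochondrial genes or without the 10 most abundant genes of either library), other pseudocounts and other filters. Under all of them Lgals9 alone was at least 2-fold lower (1 member). The share of all genes that were so lower ran from 1.16% (no filter) to 7.24% (pseudocount of 0.1 CPM). The median log2 ratio of the members ranged from 0.31 to 0.50 over those past the filter. The number at least 2-fold higher was 0, with these exceptions. With a pseudocount of 0.1 CPM it was 1 (Vsir, at 2.13), beside 9.62% of all genes. With the library total without the 10 most abundant genes it was 2 (Pvr at 1.01 and Vsir at 1.01), beside 7.01% of all genes. In each of these settings Vsir was past the filter only through PKCi. Of 87 member ratios so recomputed, 87 kept their sign and 84 stayed within the counting interval. The filters do not alter a ratio and a pseudocount cannot change its sign, so part of this agreement was fixed in advance. Those outside the counting interval were Vsir at pseudocounts of 0.1 CPM (above) and 5 CPM (0.29) and Lgals9 at a pseudocount of 5 CPM (−1.01). Of 104 recomputed medians of the related and marker lists, 97 kept their sign. A band was set from the median of the genes' lower interval ends to the median of their upper ends, and 21 medians moved outside it. That band is not a counting interval of the median itself. The receptor median went from 0.85 to 0.17 with TPM, and the fibroblast marker median from 0.85 to −0.77 with TPM. The TNF superfamily median went from 0.82 to 0.03 with no filter and 1.72 with a pseudocount of 0.1 CPM. The nectin median went from −0.66 to 0.00 with no filter. With a pseudocount of 5 CPM it was −0.32, which lay within its band. Vsir did not pass 1 TPM, and neither Vsir nor Cd274 passed a filter of 5 CPM. Of 12273 genes tested, the count at least 2-fold higher went from 802 to 1181 with a pseudocount of 0.1 CPM and to 449 with 5 CPM, and of those lower from 630 to 888 and 324. With TPM, which also set the filter at 1 TPM, 14174 genes were tested, of which 1398 were higher and 985 lower. An alternative chosen after seeing the data, dividing by the longest transcript, put Pvr before Cd47. Depth limits Cd274 and Vsir, with 43 counts or fewer in each library; the spread between cultures cannot be read from 1 library per group.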
